A study of Mus musculus and Rattus norvegicus with 12 samples.

Results

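The Hox cluster genes were followed across 12 cell lines of mouse and rat. All rows whose symbol is Hox, a cluster letter from a to d and a paralog number were taken, which gave 39 of the 24411 rows of the mouse tables and 25 of the 17315 rows of the rat tables. No measured value entered that choice. RNA-seq of ribosomal RNA-depleted total RNA from the lines was deposited as counts per gene. All mouse lines were of the ICR strain. There were 3 pXEN lines (pXEN2, pXEN4, pXEN6), 3 XEN lines (XEN1, XEN2, XEN5) and 2 lines of embryonic stem (ES) cells (ES2, ES3). The rat XENP lines were CX1 and MAX8 of the WKY strain and MAX2 and MAX3 of the F344 strain. All were derived from blastocysts. The pXEN and XENP lines were kept in one published condition. The XEN lines were grown on a layer of mouse embryo fibroblasts with serum. The ES lines were grown in serum with LIF and the "2i" inhibitors. Culture therefore differed together with cell type in each mouse comparison, and only the labels of XEN name fibroblasts as a growth layer. Each sample is a separate line, so replicate spread is the spread between lines.

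Hox genes encode homeodomain transcription factors that give cells of the embryonic trunk and limbs their position along the head-to-tail axis. They lie in 4 clusters, and genes of low paralog number are used towards the head and those of high number towards the tail and the ends of the limbs. In ES cells the clusters are known to carry Polycomb repression, and fibroblasts are known to keep the Hox pattern of the body site they came from. Extraembryonic endoderm, the lineage of XEN cells, lines the yolk sac and does not form the trunk. The comparison asked which Hox genes had counts in endoderm lines kept without and with a fibroblast layer in their labels, and in ES cells.

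In GRCm38 the Hoxa cluster occupies 105.3 kb of chromosome 6 (minus strand, 11 genes). The Hoxb cluster spans 173.9 kb of chromosome 11 (96194316 to 96368256, plus strand, 10 genes). The Hoxc cluster spans 115.8 kb of chromosome 15 (102921103 to 103036852, plus strand, 9 genes). The Hoxd cluster spans 96.83 kb of chromosome 2 (74668310 to 74765142, plus strand, 9 genes). A promoter of a head-most and of a tail-most gene is shown, because Hoxb4 was the Hox gene with the most counts in pXEN and Hoxd13 the Hox gene with the most counts in ES. The windows run from 250 bases before to 50 bases after the RefSeq start on GRCm38.p6, 5′ to 3′ on the plus strand, at chr11:96318017-96318316 for Hoxb4 and chr2:74667975-74668274 for Hoxd13. Capitals mark CG dinucleotides.
Hoxb4: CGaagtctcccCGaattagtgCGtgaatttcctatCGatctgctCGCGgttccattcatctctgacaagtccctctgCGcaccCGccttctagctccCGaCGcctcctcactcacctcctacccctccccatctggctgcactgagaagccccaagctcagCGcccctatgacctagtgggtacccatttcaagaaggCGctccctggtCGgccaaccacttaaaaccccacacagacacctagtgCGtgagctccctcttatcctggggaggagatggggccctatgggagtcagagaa
Hoxd13: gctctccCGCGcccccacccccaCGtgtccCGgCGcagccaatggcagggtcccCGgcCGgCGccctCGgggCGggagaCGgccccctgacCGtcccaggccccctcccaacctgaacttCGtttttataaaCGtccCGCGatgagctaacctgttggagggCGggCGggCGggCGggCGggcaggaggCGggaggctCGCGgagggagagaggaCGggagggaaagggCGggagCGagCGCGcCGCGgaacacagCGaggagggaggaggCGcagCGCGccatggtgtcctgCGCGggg
The Hoxb4 window held 14 CG dinucleotides and the Hoxd13 window 37. RefSeq windows of 300 bases were matched for 22 Hox genes, 24 windows in all, with a median of 14.5 CG dinucleotides (4 to 45), against a median of 7 over all 32851 windows. The motif TGATTNAT, the form of site that Hox proteins bind with Pbx partners, was searched on both strands. It stood in 2 of the 24 Hox windows (8.33%), those of Hoxa2 and of 1 of the Hoxd11 starts, against 3.22% of all windows, and in neither printed window. A match describes these letters only.

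Depth was low: gene counts summed to between 2661691 and 3483069 in a mouse line and between 1047535 and 1242937 in a rat line. Rn45s, the precursor of ribosomal RNA, made up 20.7% to 50.1% of the mouse sums and little of the rat sums, so levels scaled to library size (CPM) are not on one scale between species. The labelled cell types were checked with marker lists. All 8 endoderm markers had counts in every pXEN and XEN line, with summed levels of 3841 to 4696 CPM in pXEN and 3486 to 6223 CPM in XEN, against 27.1 to 51.8 CPM in ES. The 6 pluripotency markers summed to 27.6 to 61.2 CPM in pXEN and 0.28 to 0.53 CPM in XEN, against 3379 to 3383 CPM in ES. In the rat tables all 8 endoderm markers also had counts in every line. Of the 4 pluripotency markers with a rat row, only Pou5f1 had counts. Its level was 163 CPM in CX1 and 6.25 to 8.32 CPM in the MAX lines.

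Hox RNA was scarce in pXEN and more abundant and more varied in XEN. Hox genes took 13, 9 and 13 counts in pXEN2, pXEN4 and pXEN6, against 51, 92 and 104 counts in XEN1, XEN2 and XEN5. ES2 and ES3 had 31 and 63. The summed Hox level was 3.52 ± 0.876 CPM in pXEN, 24.3 ± 3.96 CPM in XEN (SD, n = 3 each) and 18.7 ± 8.35 CPM in ES (SD, n = 2). Every XEN line and both ES lines stood above every pXEN line, and the XEN and ES ranges overlapped. The spread in ES rests on 2 lines that differed, with 12.7 CPM in ES2 and 24.6 CPM in ES3. No p-value is given for a sum over the members. RNA of a whole culture was measured, so fewer cells that use a gene and less RNA per cell cannot be told apart.

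The number of Hox genes with at least 1 count followed the same order. Over the 3 lines of a group, pXEN had a count for 9 of 39 (23.1%) and XEN for 30 (76.9%), and over its 2 lines ES had one for 20 (51.3%). Of all rows of the mouse table, pXEN had a count for 56.5%, XEN for 60.6% and ES for 62.6%. Per line, 4, 4 and 6 Hox genes had counts in pXEN, 18, 25 and 24 in XEN, and 11 and 15 in ES. With at least 3 counts over the group required, pXEN had 4, XEN 24 and ES 6, and with at least 10 counts pXEN had 1, XEN 8 and ES 3. Hoxa4, Hoxa6, Hoxb5, Hoxb13, Hoxc11 and Hoxd3 had 0 counts in all 8 mouse lines. Hoxd3 shares 62.35% of its exon bases with Hoxd4 or Gm28230 on the same strand. Hoxd4 shares 52.31% with Hoxd3 or Gm28230. Gm28230 has no row in the mouse tables, so these shares are above the part that could be ambiguous between counted genes. Reads that Hoxd3 and Hoxd4 share may have been dropped as ambiguous, which was not traced.

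**Figure D1:**
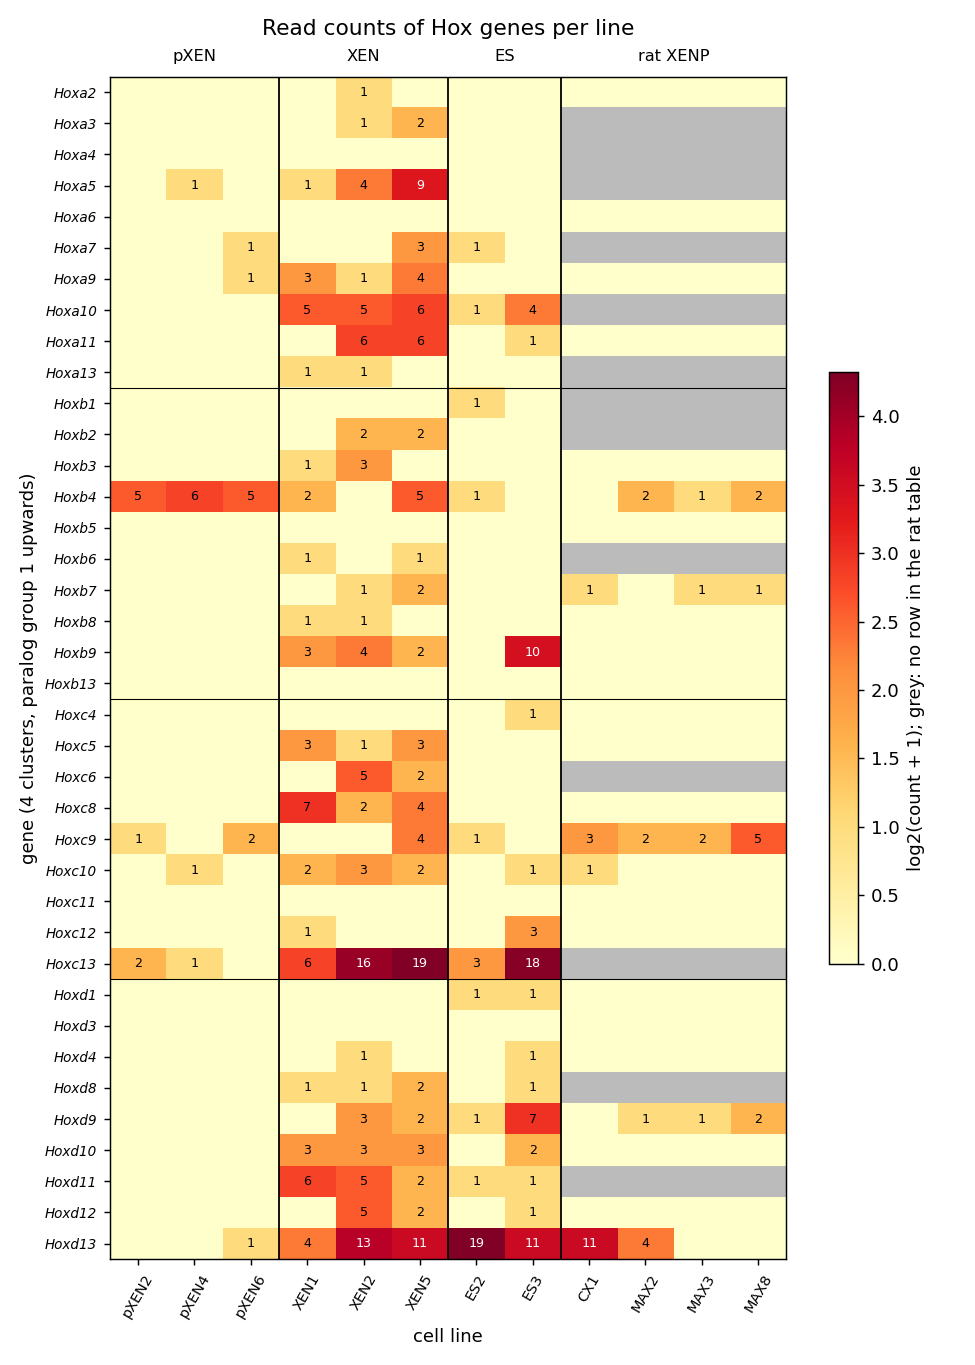
Counts of each Hox gene (rows, by cluster and paralog number) in each line (columns, grouped as pXEN, XEN, ES and rat XENP), with counts above 0 printed and shaded on a log2(count + 1) scale and rows that the rat tables do not hold in grey; 1 Hox gene is not shown. Hoxb4 is the row with counts in every pXEN column, and the XEN columns hold counts in rows of all 4 clusters.

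Of the 30 Hox genes with a count in pXEN or XEN, 21 had counts in XEN and 0 in pXEN (70%), and none had the reverse. Over all genes with a count in either group, 11.4% had counts in XEN and 0 in pXEN and 4.95% the reverse. Both groups had counts for the other 9. XEN and ES shared 17 Hox genes with counts, which is 56.7% of those of XEN and 85% of those of ES. Hoxa10, Hoxb9, Hoxc5, Hoxc8, Hoxd8, Hoxd10 and Hoxd11 had counts in all 3 XEN lines and 0 in all 3 pXEN lines. In 11 Hox genes every XEN line had a higher level than every pXEN line, 33.3% of the 33 with a count in a mouse line, against 10.3% of all genes with a count. Hoxb4 alone had every pXEN line above every XEN line, against 6.4% of all genes with a count. That order rests on library scaling, since pXEN2, pXEN6 and XEN5 each had 5 Hoxb4 counts (1.43 CPM in pXEN6, 1.32 CPM in XEN5). So does that of Hoxa5, among the 11, with 1 count each in pXEN4 (0.285 CPM) and XEN1 (0.390 CPM).

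The counts were split by paralog number as a description, with no test. Paralog groups 1 to 4, the head-most genes, gave 24 of the 35 Hox counts of pXEN, 30 of the 247 of XEN and 7 of the 94 of ES. Paralog groups 5 to 8, used in the neck and chest region, gave 2 counts of pXEN, 55 of XEN and 2 of ES. Paralog groups 9 to 13, used in the lumbar region, tail and distal limb, gave 9 counts of pXEN, 162 of XEN and 85 of ES. In CPM the 1 to 4 groups summed to 2.43 ± 0.80 in pXEN, 2.82 ± 1.47 in XEN (SD, n = 3 each) and 1.41 ± 0.34 in ES (SD, n = 2), and the pXEN and XEN lines overlapped. The 5 to 8 groups summed to 0.19 ± 0.17 CPM in pXEN, 5.50 ± 1.35 CPM in XEN and 0.400 ± 0.015 CPM in ES, and each XEN line (4.17 to 6.87) stood above all pXEN and ES lines. The 9 to 13 groups summed to 0.90 ± 0.30 CPM in pXEN, 16.0 ± 2.48 CPM in XEN and 16.8 ± 8.70 CPM in ES, with no overlap between pXEN and either other group.

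**Figure D2:**
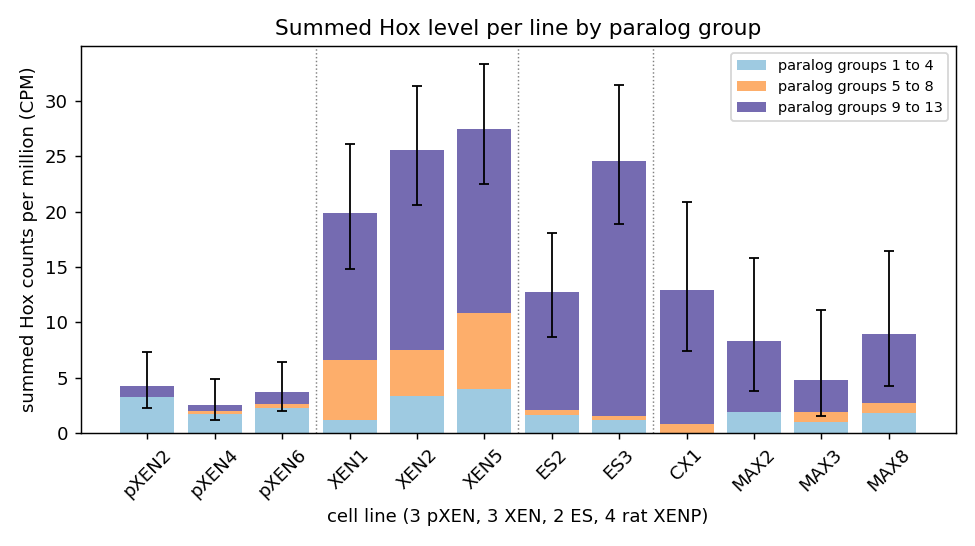
Summed Hox level in CPM of each line, with bars stacked by paralog groups 1 to 4, 5 to 8 and 9 to 13 and whiskers for the exact 95% counting interval of the sum; mouse CPM use the TMM-scaled library and rat CPM the total gene count, so the species are not on one scale. The 5 to 8 segment is visible in XEN lines (4.17 to 6.87 CPM) and is below 0.5 CPM in pXEN and ES lines.

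Among the head-most genes, Hoxb4 gave 16 of the 24 counts of pXEN. Hoxb4, known for its use in the hindbrain and neck and in blood stem cells (chromosome 11, 96318267 to 96321638, plus strand), had 5, 6 and 5 counts in pXEN2, pXEN4 and pXEN6. It had 2, 0 and 5 counts in XEN1, XEN2 and XEN5, and 1 and 0 in ES2 and ES3. It was the only Hox gene with counts in every pXEN line, and its level varied least there, at 1.60 ± 0.14 CPM in pXEN, 0.70 ± 0.66 CPM in XEN and 0.21 ± 0.29 CPM in ES. Over the pooled counts the ratio of pXEN to XEN was 2.27, with an exact 95% counting interval of 0.88 to 6.51 that includes no difference. The ratio of pXEN to ES, where 1 count was found, was 7.97 (1.24 to 334). Such intervals cover counting error only and leave out the spread between lines. Hoxb4 was too low for the test across genes.

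Over all head-most genes, pXEN had counts for 2 of 12, XEN for 7 and ES for 6. Hoxb1, Hoxc4 and Hoxd1 had counts in ES and 0 in XEN and pXEN, and Hoxd1, with 1 count in ES2 and 1 in ES3, was the one of them found in both ES lines.

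The chest-region genes had counts mainly in XEN, and none was high enough for the test across genes. Of 11 such genes, pXEN had counts for 2 (Hoxa5 and Hoxa7), XEN for 9 and ES for 2. Hoxa5, known for its part in lung and neck skeleton formation, had 0, 1 and 0 counts in pXEN2, pXEN4 and pXEN6, against 1, 4 and 9 in XEN1, XEN2 and XEN5, and 0 in both ES lines. The counting ratio of XEN to pXEN was 14.1 (2.15 to 597). Hoxc8, used in the chest and in motor neurons of the forelimb, had 0 counts in all pXEN and ES lines and 7, 2 and 4 in the XEN lines. With the group at 0 set to a floor of 3 counts, its level in XEN was 4.37-fold that of pXEN and 2.18-fold that of ES. Such folds leave out the counting error of the XEN counts. Hoxc5 had 3, 1 and 3 counts in XEN1, XEN2 and XEN5, and Hoxc6 had 0, 5 and 2, and both had 0 in pXEN and ES. In all, 11 Hox genes, 33.3% of the 33 with a count in a mouse line, had counts in XEN and 0 in pXEN and ES, against 4.71% of all genes with a count (Hoxa2, Hoxa3, Hoxa13, Hoxb2, Hoxb3, Hoxb6, Hoxb7, Hoxb8, Hoxc5, Hoxc6 and Hoxc8).

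The tail-most genes carried most Hox counts in XEN and in ES. Hoxd13, which shapes digits and the genital region (chromosome 2, 74668310 to 74671599, plus strand), had 0, 0 and 1 counts in pXEN2, pXEN4 and pXEN6. It had 4, 13 and 11 counts in XEN1, XEN2 and XEN5, and 19 and 11 in ES2 and ES3. Each XEN line and each ES line stood above each pXEN line, at 0.10 ± 0.17 CPM in pXEN, 2.69 ± 1.04 CPM in XEN and 6.05 ± 2.49 CPM in ES. Hoxc13, a gene of hair and nail formation (chromosome 15, 102921103 to 102928814, plus strand), had 2, 1 and 0 counts in pXEN2, pXEN4 and pXEN6. It had 6, 16 and 19 counts in XEN1, XEN2 and XEN5, and 3 and 18 in ES2 and ES3. Neither gene's lines overlapped between pXEN and ES, where 31.3% of all genes with a count had every pXEN line below both ES lines, nor between pXEN and XEN. Hoxc13 stood at 0.31 ± 0.33 CPM in pXEN, 3.94 ± 1.41 CPM in XEN and 4.12 ± 4.09 CPM in ES.

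Hoxd13 and Hoxc13 were the only Hox genes with enough counts for the test across genes, the quasi-likelihood test of edgeR, Benjamini-Hochberg adjusted over 10895 genes at a threshold of 0.05. Both passed its filter only through the XEN and ES lines, where they were high. Their adjusted p-values against pXEN are therefore given as a description. In pXEN against XEN, Hoxd13 was lower, with a log2 fold change of -4.32 (SE 0.95, adjusted p = 0.0236), and 3.63% of all genes tested were called lower and 0.918% higher. That call did not hold without pXEN2 (adjusted p = 0.0885), pXEN4 (0.0647), XEN2 (0.0630) or XEN5 (0.0615). Hoxc13 missed the threshold in the same comparison, with a log2 fold change of -3.56 (SE 0.93, adjusted p = 0.0553), and was called without ES2 (0.0442). DESeq2 (adjusted p = 0.0428), the 2 looser filters (0.0223 and 0.0486) and the unstranded counts (0.0470) also put Hoxc13 past the threshold. The pooled counting ratio of XEN to pXEN, which leaves out the spread between lines, was 28.2 (4.67 to 1155) for Hoxd13 and 13.8 (4.40 to 69.6) for Hoxc13.

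In pXEN against ES both genes were lower, where 17.8% of all genes tested were called lower and 18.2% higher. Hoxd13 had a log2 fold change of -5.45 (SE 0.94, edgeR adjusted p = 0.00115), and it was called in all 14 alternatives that gave a value. Hoxc13 had a log2 fold change of -3.62 (SE 1.0, edgeR adjusted p = 0.0154). Without ES3, which had 18 of the 21 Hoxc13 counts of ES, its log2 fold change was -1.89 and the call was lost (edgeR adjusted p = 0.342). In XEN against ES neither gene was called by edgeR or DESeq2, and neither had an unadjusted p under 0.05 by edgeR, while 17.8% of all genes tested were called lower and 20.7% higher. Hoxd13 had a log2 fold change of -1.13 (SE 0.65, edgeR adjusted p = 0.190) and Hoxc13 one of -0.06 (SE 0.78, edgeR adjusted p = 0.962). The standard errors leave room for a difference in either direction for Hoxc13. The pXEN and the XEN comparisons with ES share the same ES lines.

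**Figure D3:**
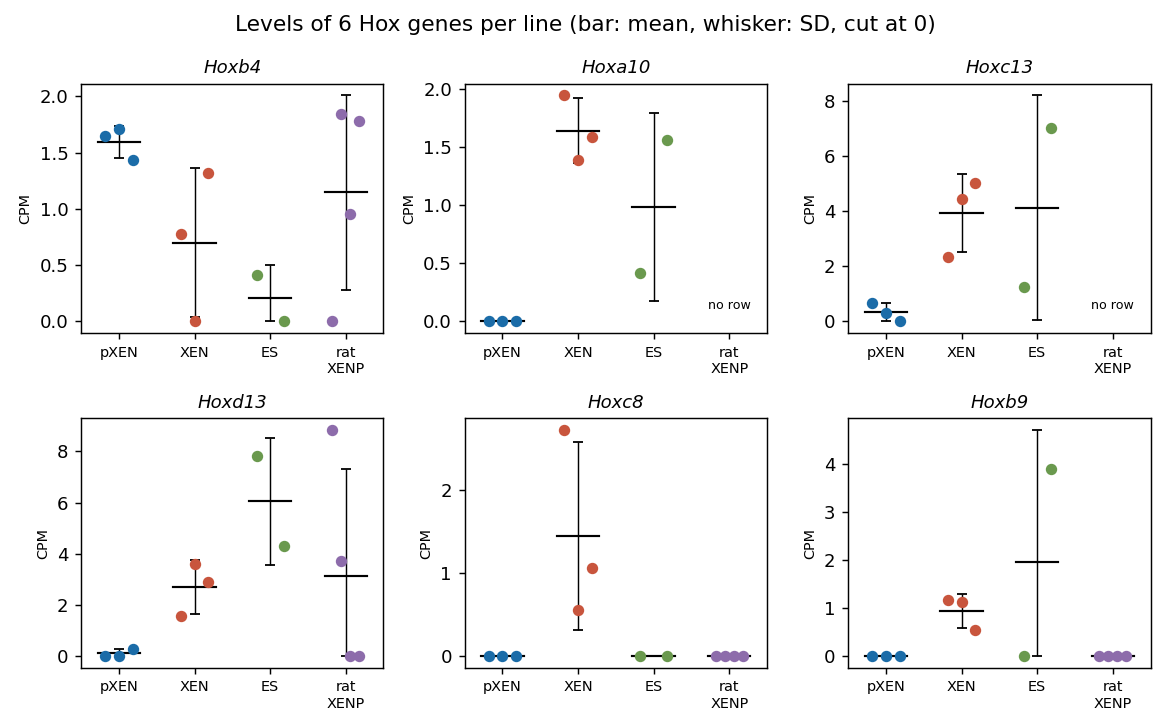
Level in CPM of 6 Hox genes in each line, with points for lines, bars for group means and whiskers for the SD, cut at 0; groups are pXEN, XEN, ES and rat XENP from left to right, with rat CPM on its own scale and genes without a rat row marked. Among the mouse groups Hoxb4 has its highest mean in pXEN (1.60 CPM), while Hoxd13 and Hoxc13 have all pXEN lines below all XEN and ES lines.

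The other tail-most genes were too low for the test, and 3 of them had counts in pXEN (Hoxa9, Hoxc9 and Hoxc10, with 1 to 3 counts over the lines). The following 4 had 0 counts in pXEN. Hoxa10, used in the lumbar region and the uterus, had 5, 5 and 6 counts in XEN1, XEN2 and XEN5, and 1 and 4 in ES2 and ES3. With pXEN set to the floor of 3 counts, Hoxa10 was 5.38-fold higher in XEN. Hoxa11, used in the forearm and in the kidney, had 0, 6 and 6 counts in the XEN lines and 0 and 1 in the ES lines. Hoxd11, its partner in those organs, had 6, 5 and 2 counts in the XEN lines and 1 in each ES line. Against the same floor in pXEN it was 4.37-fold higher in XEN. Hoxd10, a gene of the hindlimb motor neurons, had 3 counts in each XEN line, and 0 and 2 in ES2 and ES3. All XEN lines were above 0 for Hoxa10, Hoxd10 and Hoxd11, and XEN1 was at 0 for Hoxa11.

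Hoxb9 stood apart in ES3. It had 0 counts in all pXEN lines, 3, 4 and 2 in XEN1, XEN2 and XEN5, and 0 and 10 in ES2 and ES3. Hoxd9, its paralog in the Hoxd cluster, had 0, 3 and 2 counts in the XEN lines and 1 and 7 in the ES lines. ES3 was the highest of all mouse lines for both genes. ES2 was below every XEN line for Hoxb9 and within the XEN range for Hoxd9. With a filter of 3 counts, 8 Hox genes could be tested by edgeR. Hoxa10, Hoxb9, Hoxd9 and Hoxd11 had 0 counts in pXEN and could pass a looser filter only through the other groups, so their values are given as a description. In pXEN against XEN, Hoxa10 had an adjusted p of 0.0441 and Hoxd11 one of 0.0727 by edgeR. In pXEN against ES, Hoxa10 (adjusted p = 0.0335) and Hoxb9 (0.0344) were past the threshold, and with no filter Hoxd9 as well (0.0265).

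Per kilobase of exon, which allows levels of different genes to be set side by side, the order of the Hox genes also differed between the groups. In pXEN, Hoxb4 led with 0.622 ± 0.056 CPM per kb, and Hoxc13 with 0.128 ± 0.134 and Hoxc9 with 0.124 ± 0.119 lay below it and overlapped each other (SD, n = 3). In XEN, Hoxc13 led with 1.60 ± 0.574 CPM per kb and Hoxd13 followed with 1.08 ± 0.421, which overlap. Hoxa5 (0.689 ± 0.536), Hoxd10 (0.513 ± 0.114), Hoxc8 (0.511 ± 0.402) and Hoxa10 (0.502 ± 0.087) came next in XEN and overlap one another (SD, n = 3). In ES, Hoxd13 led with 2.44 ± 1.0 CPM per kb, ahead of Hoxc13 with 1.68 ± 1.66, Hoxb9 with 0.757 ± 1.07 and Hoxd9 with 0.735 ± 0.767 (SD, n = 2), all within their spread.

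By cluster, pXEN had counts in 4 Hoxa, 1 Hoxb, 3 Hoxc and 1 Hoxd genes, with 11, 16, 7 and 1 counts. XEN had counts in 9 Hoxa, 7 Hoxb, 7 Hoxc and 7 Hoxd genes, with 69, 31, 80 and 67 counts. ES had counts in 4 Hoxa, 3 Hoxb, 5 Hoxc and 8 Hoxd genes, with 8, 12, 27 and 47 counts. XEN thus drew on all 4 clusters, the Hoxb counts of pXEN were all of Hoxb4, and the Hoxd cluster held the most counts of ES. On the opposite strand of the Hox genes, 0 to 2 counts were found per line in pXEN, 0 in each XEN line and 1 in each ES line.

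In the rat XENP lines few Hox genes had counts. CX1, MAX2, MAX3 and MAX8 had 16, 9, 5 and 10 Hox counts, or 8.72 ± 3.32 CPM (SD, n = 4), with 4 Hox genes found in each line. Over the 4 lines 6 of the 25 Hox rows had a count (24%), against 66.2% of all rows of the rat tables. Hoxc9, which shapes motor neurons of the trunk, had 3, 2, 2 and 5 counts in CX1, MAX2, MAX3 and MAX8 and was the only Hox gene found in every rat line. Hoxb4 had 0, 2, 1 and 2 counts in the same order of lines, and Hoxd9 had 0, 1, 1 and 2. Hoxd13 had 11 and 4 counts in CX1 and MAX2 and 0 in MAX3 and MAX8. CX1 and MAX8 are of the WKY strain, so each strain had a line with and a line without Hoxd13 counts. The lines also differed in passage, with 38 and 40 in CX1, 16 and 17 in MAX2, 10 and 11 in MAX3, and 11 and 12 in MAX8, whose part was not tested. CX1 also had the most Pou5f1 (163 CPM) and fibroblast marker RNA (126 CPM) of the rat lines. The part of these differences in its Hoxd13 counts was not tested. Hoxb7 had 1 count in 3 of the lines and Hoxc10 had 1 in CX1.

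Set beside the mouse groups, 4 of the 6 Hox genes with counts in rat XENP (Hoxb4, Hoxc9, Hoxc10 and Hoxd13) also had counts in pXEN. Hoxc9 had 1, 0 and 2 counts in pXEN2, pXEN4 and pXEN6, against 0, 0 and 4 in XEN1, XEN2 and XEN5. Of the mouse members, 14 have no row in the rat tables used here, among them Hoxa5, Hoxa7 and Hoxc13, which had counts in pXEN. Paralog groups 1 to 4, 5 to 8 and 9 to 13 gave 5, 3 and 32 of the 40 rat counts. Species, genome and annotation change with the group, so no test was made between rat and mouse lines.

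Fibroblast genes moved with the difference between pXEN and XEN. Of 18 fibroblast markers, 5 to 7 had counts in a pXEN line, 17 in each XEN line and 9 or 10 in an ES line. Their summed level was 20.1 to 25.3 CPM in pXEN, 786 to 1022 CPM in XEN and 12.9 to 17.3 CPM in ES. In pXEN against XEN, edgeR called 16 of the 17 tested lower and none higher, with a median log2 fold change of -6.82 against 0 over all genes tested. Of all genes tested there, 3.63% were called lower and 0.918% higher. In XEN against ES, 16 of 17 were higher and none lower (median 6.13), and in pXEN against ES, Tagln was higher and Col5a2 and Thy1 were lower. Col5a2 had 0 counts in pXEN and 4 over the ES lines, and Thy1 had 0 and 14. Of all genes tested, 20.7% were called higher and 17.8% lower in XEN against ES, and 18.2% higher and 17.8% lower in pXEN against ES. The 7 defining markers (Col1a1, Col1a2, Col3a1, Pdgfrb, Thy1, Prrx1 and Twist1) summed to 3.29 to 8.04 CPM in pXEN, 129 to 186 CPM in XEN and 8.96 to 9.87 CPM in ES. All 7 had counts in each XEN line. Col1a2, Col3a1, Thy1 and Prrx1 were at 0 in all pXEN lines, and Col1a2, Col3a1 and Prrx1 in both ES lines. Apart from Tagln, Fbn1 and Pdgfrb, the fibroblast markers tested, and Prrx1, passed the filter of the test only through the XEN lines. Their calls are therefore given as a description. Twist1 went the other way, with 2.88 and 3.12 CPM in ES2 and ES3 against 1.06 to 1.56 CPM in XEN. Thy1 was not called in XEN against ES (log2 fold change 0.64, edgeR adjusted p = 0.437). In rat XENP the 7 summed to 0 to 0.805 CPM, and 4 to 7 of the 17 fibroblast markers with a rat row had counts in a line, at 46.4 to 126 CPM in all.

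Line by line, XEN1 had 786 CPM of the 18 markers and 19.9 CPM of Hox genes, XEN2 had 880 and 25.6, and XEN5 had 1022 and 27.5. With 3 lines no relation can be tested, and the 95% counting intervals of the Hox sums overlap (14.8 to 26.1 CPM in XEN1, 22.5 to 33.3 CPM in XEN5). Single markers did not share 1 order, since Fbn1, Loxl1 and Acta2 were highest in XEN1. XEN1 was at passages 9 and 10, and XEN2 and XEN5 at 19 to 21. In ES, ES3 had 12.9 CPM of fibroblast markers and 24.6 CPM of Hox genes, and ES2 had 17.3 and 12.7. Hoxc13 and Hoxd13 thus stood at 4.12 and 6.05 CPM in ES lines whose fibroblast markers were 12.9 to 17.3 CPM, while the chest-region Hox genes were at 0.390 to 0.411 CPM there. The XEN cells and the layer they grew on were not separated in the data, and the part of fibroblast RNA in the Hox counts of XEN was not tested.

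**Figure D4:**
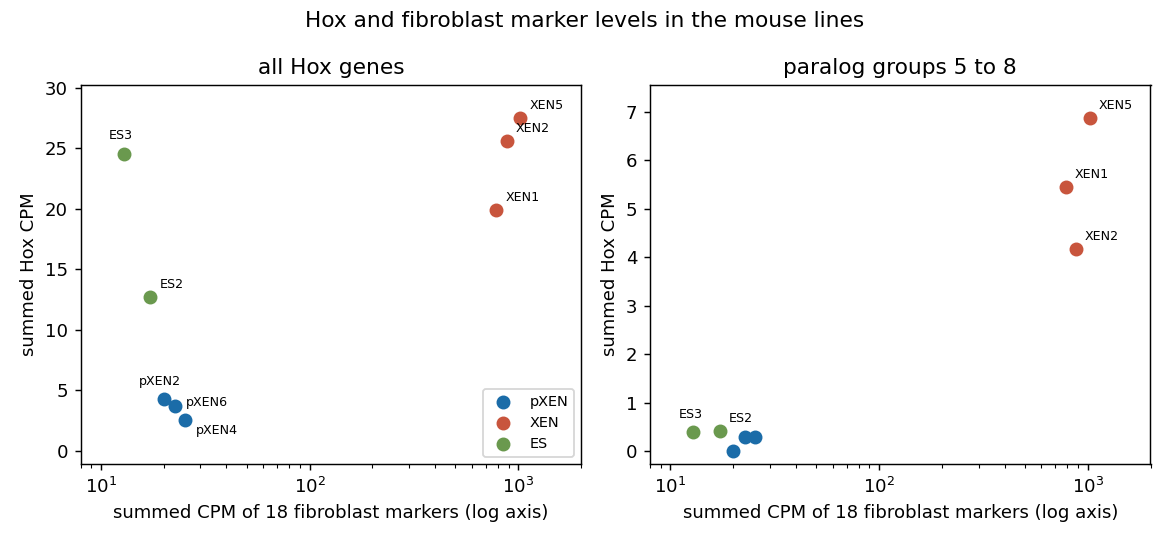
Summed CPM of 18 fibroblast markers (x axis, log) against summed CPM of all Hox genes (left) and of paralog groups 5 to 8 (right) in the 8 mouse lines, 1 point per line. The XEN lines lie at the upper right in both panels, and the ES lines reach 12.7 and 24.6 CPM of all Hox genes at low fibroblast levels but stay near 0.4 CPM for groups 5 to 8.

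Other transcription factors of embryonic mesenchyme, the tissue of fibroblasts, were also counted. Of 25, 3 to 7 had counts in a pXEN line, 15 to 18 in a XEN line and 8 to 11 in an ES line, with summed levels of 1.71 to 11.8 CPM in pXEN, 47.5 to 54.9 CPM in XEN and 15.6 to 17.7 CPM in ES. Among the XEN lines XEN1 had the highest sum of these factors and the lowest Hox sum. Only 4 were high enough to test. In pXEN against XEN, Prrx1 and Prrx2, limb and face mesenchyme factors, were called lower by edgeR (Prrx1 adjusted p = 0.000832), and in XEN against ES both were higher. Both passed the filter only through the XEN lines, so these calls are given as a description. In pXEN against ES, 1 of the 4 was lower and none higher, where 17.8% of all genes tested were called lower and 18.2% higher.

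Markers of other cell types were checked in the same way. Of 7 trophoblast markers 1 was tested, Eomes, which was lower than in ES in both pXEN and XEN and passed the filter only through the ES lines. Their sums were 0.854 to 4.59 CPM in pXEN, 0.793 to 2.73 CPM in XEN and 25.1 to 28.8 CPM in ES. The 6 early mesoderm markers, genes of the tissue in which Hox genes are first used, were too low to test, at 0 to 0.854 CPM in pXEN, 0.528 to 1.17 CPM in XEN and 1.17 to 4.93 CPM in ES. Of 7 blood and endothelium markers 4 were tested and none was called between pXEN and XEN by edgeR (1 at an unadjusted p under 0.05) or DESeq2, with sums of 147 to 479 CPM in pXEN and 63.4 to 197 CPM in XEN.

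Hox proteins bind DNA with partners of the TALE class, the Pbx, Meis and Pknox proteins. These 9 genes summed to 135 to 143 CPM in pXEN, 105 to 120 CPM in XEN and 49.8 to 58.5 CPM in ES, so partner RNA was present in every group. In pXEN against XEN, edgeR called 1 of the 7 tested lower and none higher, against 3.63% and 0.918% of all genes tested. Meis1 and Meis3 were higher than in ES in both comparisons, which share the ES lines. Of all genes tested, 18.2% were called higher than in ES in pXEN and 20.7% in XEN. Meis1 averaged 68.7 ± 12.9 CPM in pXEN and 40.1 ± 9.75 CPM in XEN, against 1.97 ± 1.62 CPM in ES (SD, n = 3, 3 and 2). Meis3 averaged 24.0 ± 2.40 CPM in pXEN and 13.7 ± 4.57 CPM in XEN, against 2.40 ± 0.091 CPM in ES. The median log2 fold change of the 7 tested was 0.36 in pXEN against XEN, against 0 over all genes tested.

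Hox clusters are opened by Cdx factors and by the Kmt2a (MLL) and Kdm6 enzymes, and are held silent by Polycomb complexes. Of 21 such genes 18 were tested, and edgeR called none in pXEN against XEN (1 at an unadjusted p under 0.05), nor did DESeq2, with a median log2 fold change of -0.04 against 0 over all genes. Against ES, the Polycomb genes Bmi1 and Cbx8 were higher in both pXEN and XEN. Kmt2a, which opens the clusters, and the Polycomb genes Eed, Suz12, Jarid2 and Phc1 were lower than in ES in both, and Kdm6a and Cbx2 were lower in XEN. Of all genes tested, 17.8% were called lower than in ES in each comparison, and 18.2% higher in pXEN and 20.7% higher in XEN. Cdx1, an activator of Hox genes in the tail end of the embryo, had 0 counts in pXEN and XEN, 55 in ES2 and 6 in ES3. Cdx2 had 1 count in each of the 3 groups, and Cdx4 had 0 in pXEN and XEN and 3 in ES.

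Of the noncoding genes in or beside the clusters, few had counts in any group, with 0 to 2 of the 17 in the table in a pXEN line, 1 to 5 in a XEN line and 2 to 4 in an ES line. They summed to 0 to 1.15 CPM in pXEN and 0.834 to 2.91 CPM in XEN, against 12.7 to 23.4 CPM in ES, where Gm53 and Halr1 gave nearly all of the counts. Gm53, a long noncoding RNA gene of the Hoxb cluster (chromosome 11, 96251105 to 96264868, plus strand), had 0 counts in pXEN, 1 in XEN1 and 0 in XEN2 and XEN5, against 17 in ES2 and 47 in ES3. It was the 1 noncoding gene tested and was lower than in ES by edgeR in pXEN (adjusted p = 0.000735) and in XEN (log2 fold change -6.48, adjusted p = 0.00118). Gm53 passed the filter only through the ES lines, so these values are given as a description. Halr1, outside the Hoxa cluster, had 0 counts over the pXEN lines, 1 over XEN and 23 over ES. Hotairm1, in the Hoxa cluster, had 6 counts over the pXEN lines, 9 over XEN and 1 over ES. Hotair, Hottip and Haglr had 0 counts in all mouse lines.

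The genes that flank the clusters were expressed in every group. Of 19 in the table, 14 had counts in each pXEN line, 14 or 15 in a XEN line and 18 in each ES line. Of the 15 tested, edgeR called none in pXEN against XEN (1 at an unadjusted p under 0.05), nor did DESeq2. In pXEN against ES, Cbx1, Calcoco2 and Calcoco1 were lower, and in XEN against ES, Snx11 and Calcoco2 were lower. Of all genes tested, 17.8% were called lower in each of these comparisons. Calcoco2 had 0 counts in pXEN and XEN and passed the filter only through the ES lines.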

How the data were processed

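RNA of 12 lines was sequenced after ribosomal RNA depletion with a directional kit, per the labels' protocols. For each gene the authors deposited raw counts in unstranded, same-strand and reverse-strand columns, as their values show. The submitters' processing notes name STAR 2.5.1, Trimmomatic 0.33, CASAVA 1.8.2 and DESeq2. Which annotation was counted is not given in the sources. The column of the reverse strand, with 98.9% to 99.3% of stranded counts, was used. Rows of unmapped, multimapping, ambiguous and featureless reads were left out of library sizes. Multimapping reads were 65.5% to 70.1% of rat reads. Whether reads of Hox genes were among them was not tested, so rat Hox counts may be incomplete.

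Groups were taken from the titles. All 8 mouse libraries were fitted with edgeR 4.0.16 (R 4.3.3; TMM, filterByExpr with minimum count 10, robust glmQLFit, glmQLFTest), and p-values were adjusted over all 10895 genes tested. Standard errors are the absolute log2 fold change over the square root of F. The fit was tested on simulated counts. Mouse CPM use the TMM-scaled library and rat CPM the total gene count. Folds against a group at 0 set that group to a floor of 3 counts and leave out the counting error of the other group. Intervals are exact at 95% and cover counting error only. Neither covers the spread between lines. Coordinates and exon lengths are from GENCODE on GRCm38, matched for 23376 of 24411 symbols; motif and CG counts are from RefSeq windows. Alternatives were DESeq2 1.42.0, upper-quartile scaling, other filters, unstranded counts, removal of Rn45s, 2-group fits and leaving out each library.

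The members, gene lists and tests were chosen with earlier results of these data known. Members with 10 or more counts in a library (Hoxb9, Hoxc13 and Hoxd13) or called in a comparison were to be given in every line, and of other lists the called genes. Other members given by line, and other genes of the lists, were named after their values were seen. Some members and list genes are not reported here.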

Additional observations from a re-analysis of the deposited data

Results flagged for a closer look

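In the rat XENP lines, 2 of 7 Hox values tested had a line that stood apart from the other 3 by Dixon's criterion. Chance flags about 1 in 20 such groups when values are continuous. That rate does not hold for counts of 0 and 1, where a single count in 1 line is always flagged. Hoxb7 was at 0 CPM in MAX2, against 0.805 to 0.955 CPM in the other lines, which had 1 count each. Hoxc10 was at 0.805 CPM in CX1, which is 1 count, against 0 in the other 3. Both rest on single counts and lie below the floor of 3 counts per line.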

How the results depend on the processing

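Hoxd13 remained called lower in pXEN than in XEN in 10 of 14 alternatives and than in ES in all 14, and neither direction changed. Hoxc13 was called in 5 of 14 against XEN and in 13 of 14 against ES. In pXEN against XEN, where 1 Hox gene was called, DESeq2 and the unstranded counts called 2 and both looser filters 3, and leaving out single libraries gave 0 to 2. In pXEN against ES, where 2 were called, no filter gave 5, a minimum count of 3 gave 4, and leaving out single libraries 1 to 2. In XEN against ES the number stayed 0 in every alternative, while the Hoxc13 log2 fold change turned positive with no filter (0.0072), without XEN1 (0.19) and without ES3 (1.66), within a range of -0.80 to 1.66 over single libraries left out. The cause was not tested. Fits of only the pXEN lines with 1 other group gave no value, because no Hox gene passed the filter. Upper-quartile scaling moved the median log2 fold change of all genes to -0.13 in pXEN against ES and -0.11 in XEN against ES.

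Hox genes with counts numbered 9 in pXEN, or 4 with at least 3 counts and 1 with at least 10. In XEN they numbered 30, or 8 with at least 10 counts. In ES they numbered 20, or 6 and 3, and in rat XENP 6, or 2 with at least 10. Leaving out single libraries, an alternative chosen after seeing the data, gave 6 to 9, 28 to 29, 11 to 15 and 5 to 6 in these groups. Without Rn45s the summed level was 5.39 CPM in pXEN, 37.5 CPM in XEN and 28.6 CPM in ES. Leaving out single libraries gave 3.15 to 4.00, 22.7 to 26.5 and 12.7 to 24.6 CPM in these and 7.34 to 10.0 CPM in rat XENP. The order of the mouse groups was the same with total gene counts as library sizes. No paired analysis was possible because the groups share fewer than 2 replicate numbers. Depth limits every Hox value: 3 counts in a line were 0.793 to 1.23 CPM in mouse and 2.41 to 2.86 CPM in rat, and a gene at 0 may be present below that.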
